A study of Mus musculus with 10 samples.

Results

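The myostatin and activin pathway was followed here through 10 genes, chosen by name: Mstn, Fst, Fstl3, Acvr2a, Acvr2b, Acvr1b, Tgfbr1, Smad2, Smad3 and Smad7. Of these, 9 have a row among the 15883 genes of the count table, and Fstl3 was not analysed here. The tissue was biceps femoris, a hindlimb muscle made mostly of fast fibres, taken from male C57BL/6J mice aged 5 weeks after a fast of 16 hours. The transgenic group (TG, 5 mice) carries a transgene for Zfp407, a zinc finger protein, and is compared with 5 wild-type mice (WT) of the same background, age, sex and fast. The labels name neither the promoter of the transgene nor the cells in which it is active. The question put to these genes is whether their transcripts differ between muscle that overexpresses Zfp407 and muscle that does not. Libraries are named by their column number, which gives the group but not the mouse.

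Myostatin, the product of Mstn, is a secreted factor of the TGF-beta family that is made by muscle fibres and limits muscle mass. It and the activins bind the type II receptors ACVR2A and ACVR2B, which recruit the type I receptors ACVR1B or TGFBR1. These phosphorylate SMAD2 and SMAD3, which enter the nucleus with SMAD4. Follistatin, the product of Fst, and its relative FSTL3 bind the ligands outside the cell, and SMAD7 inhibits the type I receptors.

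None of the 9 measured members passed an adjusted p of 0.05 in either direction, against 5.33% of the 13338 genes tested, 4.28% higher and 1.05% lower in TG (edgeR's quasi-likelihood test with Benjamini-Hochberg adjustment). No member was called by DESeq2 or in the authors' deposited table either, where 7.74% and 7.29% of all genes were called. An unadjusted p under 0.05 was reached by 1 member, Acvr1b, against 18.1% of all genes tested. In no member did the TG libraries separate from the WT libraries, against 8.04% of all genes tested. The log2 fold changes (TG over WT) ran from -0.43 for Acvr1b to 0.43 for Smad3, with 4 members above 0 and 5 below. Their median was -0.0016, beside 0.0027 over all genes tested, and the median size without sign was 0.13, beside 0.17. The 95% intervals of the 9 members, as fold changes of TG over WT, lay between 0.580 and 1.90. A p that misses the threshold does not show that levels were equal, and these intervals give the range of change that the data leave possible.

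**Figure D1:**
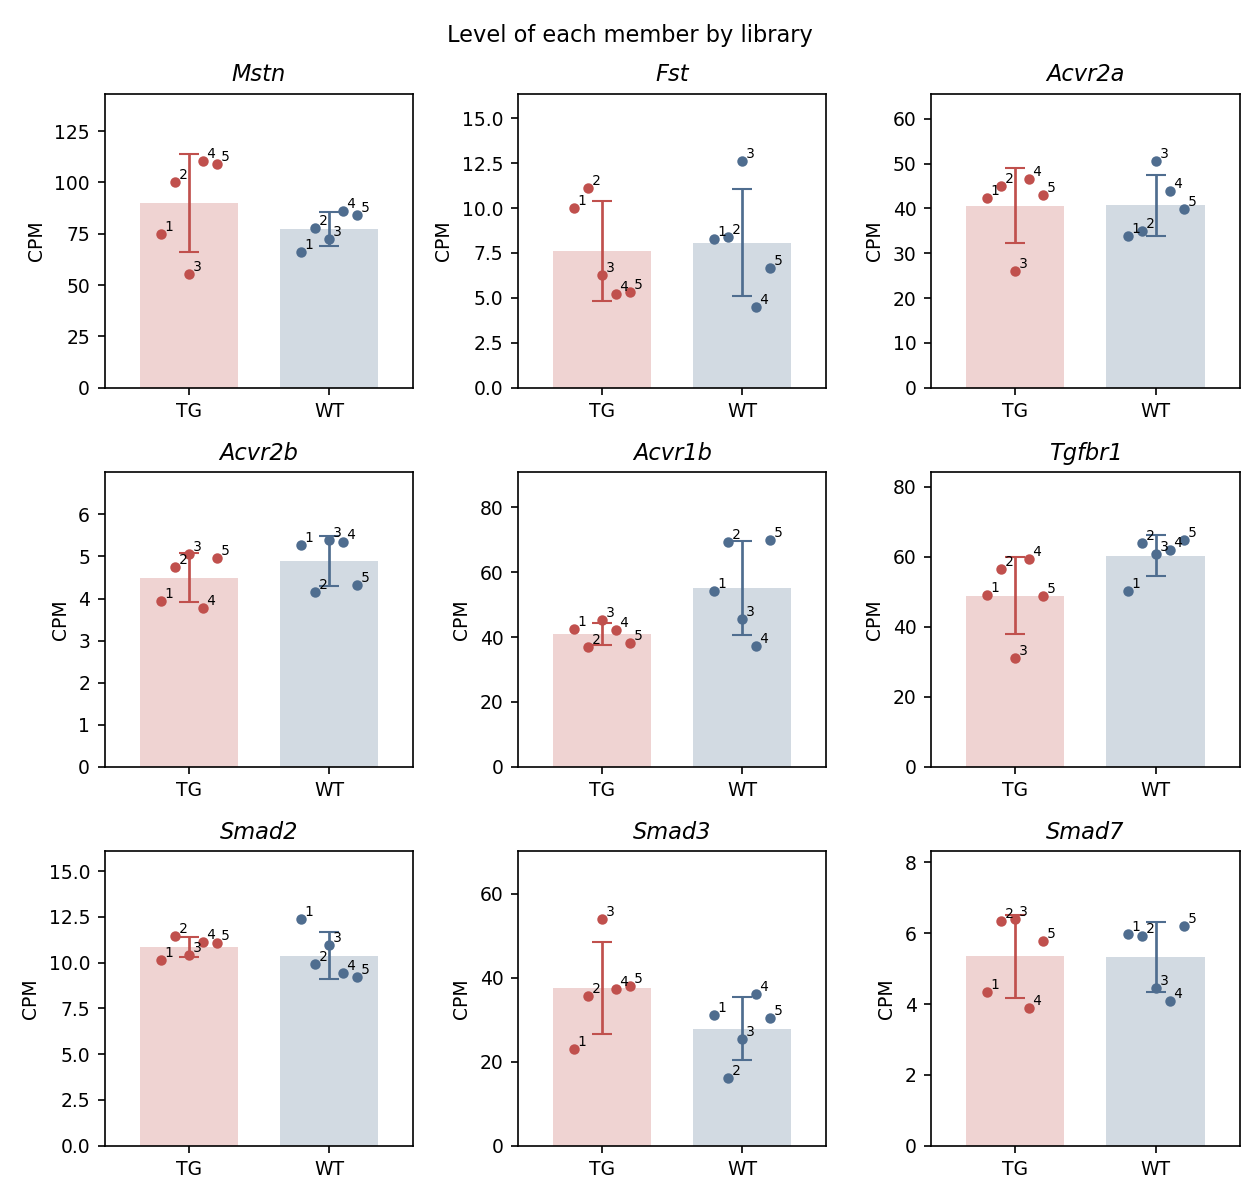
CPM of each of the 9 members in the 5 TG libraries (left, red) and the 5 WT libraries (right, blue), where bars are means, error bars are SD and each point carries its library number. The groups overlap in all 9 panels, and TG library 3 is the lowest point for Mstn, Acvr2a and Tgfbr1 and the highest for Smad3.

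CPM is the count of a gene relative to the size of its library after TMM scaling. Zfp407 itself had 489 ± 124 CPM in TG and 22.9 ± 1.73 CPM in WT (SD, n = 5 each), and rose by a log2 fold change of 4.41 ± 0.19 (SE, adjusted p = 8.15e-08 by edgeR). Each TG library held 15162400 to 19047834 counts and each WT library 13530367 to 17814900. The defining muscle markers Acta1, Ckm, Des, Mb, Ttn, Myod1 and Myog were all detected, and together they held 97101 to 122119 CPM in TG and 121404 to 166611 CPM in WT. Hepatocyte markers, as a sum over 15 genes, ran from 542 to 6125 CPM in TG, highest in library 5, and from 189 to 370 CPM in WT, and 12 of the 15 rose. The satellite cell markers Pax7 and Myf5 both rose, with log2 fold changes of 0.93 ± 0.18 and 1.71 ± 0.23 (SE, adjusted p = 0.00969 and 9.4e-04 by edgeR), and their sum was 9.30 to 14.2 CPM in TG and 3.77 to 5.86 CPM in WT. Each edgeR p-value sets the difference between the groups against the spread between these libraries, 1 for each mouse named by the series.

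The promoter of Mstn is shown because it is the gene of the ligand after which the pathway is named and the most abundant member per length. Of the 10 members, 7 have an entry in the RefSeq promoter table. The Mstn entry spans chr1:53061390-53061689 on the plus strand of GRCm38.p6, from 250 bases before to 50 bases after the RefSeq start. Capitals mark 2 motifs: the E-box CANNTG, to which myogenic basic helix-loop-helix factors bind, and the pentamer CAGAC, which holds the core of the SMAD binding element.
Mstn promoter: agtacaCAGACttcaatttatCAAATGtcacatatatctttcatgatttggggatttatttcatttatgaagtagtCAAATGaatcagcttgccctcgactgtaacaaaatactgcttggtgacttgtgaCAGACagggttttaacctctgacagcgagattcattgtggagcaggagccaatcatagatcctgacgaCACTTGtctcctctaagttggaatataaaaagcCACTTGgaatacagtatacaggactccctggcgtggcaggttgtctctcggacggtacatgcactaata
The E-box matched at 4 places and CAGAC at 2, in a search of both strands with no overlap between matches. Of 32851 RefSeq promoters of the same length, 72.3% hold at least 1 E-box and 6.49% hold 4 or more. CAGAC occurs in 49.6% of them, and 16.2% hold 2 or more matches. The matches are letters in a window and say nothing of binding.

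Mstn lies on chromosome 1 from 53061640 to 53068079 (GRCm38, GENCODE M21). It had 74.7, 100.3, 55.4, 110.2 and 109 CPM in TG libraries 1 to 5, against 66.3, 77.9, 72.5, 86.0 and 84.2 CPM in WT libraries 1 to 5. TG libraries 2, 4 and 5 lay above every WT library and TG library 3 lay below every WT library, so the TG values spread on both sides of the WT range. The means were 89.9 ± 24.0 CPM in TG and 77.4 ± 8.17 CPM in WT (SD, n = 5 each). The log2 fold change was 0.22 ± 0.17 (SE, adjusted p = 0.581 by edgeR), with a 95% interval from -0.16 to 0.59. It was 0.35 ± 0.12 without TG library 3 (SE, adjusted p = 0.115 by edgeR) and -0.011 ± 0.18 without TG libraries 4 and 5, the libraries highest in hepatocyte markers (SE, adjusted p = 0.988 by edgeR). With the mean of the hepatocyte markers as a covariate it was -0.38 ± 0.25 (SE, adjusted p = 0.544 by edgeR). This covariate separates TG from WT, so here and below a fit with it cannot tell group and marker level apart.

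Fst, the gene of the secreted inhibitor, lies on chromosome 13 from 114452290 to 114458951. It had 10.01, 11.1, 6.27, 5.20 and 5.34 CPM in TG libraries 1 to 5, against 8.27, 8.39, 12.6, 4.49 and 6.64 CPM in WT libraries 1 to 5. Both the highest and the lowest value came from WT, and TG libraries 1 and 2 stood well above TG libraries 3 to 5. Its log2 fold change was -0.09 ± 0.28 (SE, adjusted p = 0.909 by edgeR), with the widest 95% interval among the 9 members, from -0.70 to 0.52. TG libraries 1 and 2 were the highest of the 10 in the summed leukocyte markers, at 294 and 330 CPM, against 132 to 217 CPM in the other TG libraries and 106 to 200 CPM in WT. WT library 3, the highest in Fst at 12.6 CPM, had 168 CPM of these markers, and their part in the Fst level was not tested. Without TG libraries 1 and 2 the log2 fold change of Fst was -0.54 (edgeR adjusted p = 0.334), and without TG libraries 4 and 5 it was 0.18 (edgeR adjusted p = 0.818). In bulk muscle, fewer cells of a type and less RNA per cell cannot be told apart.

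The type II receptors showed small differences between the groups. Acvr2a, on chromosome 2 from 48814109 to 48903269, had 42.3, 45.0, 26.1, 46.7 and 43.1 CPM in TG libraries 1 to 5, against 33.9, 35.1, 50.5, 43.9 and 39.9 CPM in WT libraries 1 to 5. TG library 3 was the lowest of the 10, while the other TG libraries sat within the WT range. The means were 40.6 ± 8.31 CPM in TG and 40.7 ± 6.81 CPM in WT (SD, n = 5 each), and the log2 fold change was -0.0016 ± 0.16 (SE, adjusted p = 0.997 by edgeR). Exons of Acvr2a overlap those of Orc4 on the opposite strand, and no source used here states the strand setting of the counting. Orc4 averaged 21.9 ± 3.40 CPM in TG and 22.9 ± 2.47 CPM in WT (SD, n = 5 each).

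Acvr2b, on chromosome 9 from 119402118 to 119434995, was the least counted member, with 49 to 102 reads per library. It had 3.95, 4.75, 5.06, 3.78 and 4.95 CPM in TG libraries 1 to 5, against 5.28, 4.15, 5.38, 5.34 and 4.33 CPM in WT libraries 1 to 5. The 3 highest values came from WT and the 2 lowest from TG, with overlap between. The log2 fold change was -0.13 ± 0.15 (SE, adjusted p = 0.728 by edgeR). It was -0.21 without WT library 2, -0.085 without TG library 1 and -0.069 without TG library 4. Per kilobase of exon, Acvr2a exceeded Acvr2b in every library, by 3.56 to 8.52 times in TG and by 4.43 to 6.48 times in WT.

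The type I receptors were the members with the lowest fold changes. Acvr1b, which encodes the activin receptor ALK4, lies on chromosome 15 from 101174067 to 101213684. It had 42.4, 36.8, 45.1, 42.2 and 38.2 CPM in TG libraries 1 to 5, against 54.2, 69.5, 45.5, 37.1 and 69.8 CPM in WT libraries 1 to 5. All TG libraries lay within a narrow band that only WT library 4 shared, whereas WT libraries 2 and 5 stood far above it. The means were 41.0 ± 3.39 CPM in TG and 55.2 ± 14.5 CPM in WT (SD, n = 5 each), and the log2 fold change was -0.43 ± 0.16 (SE, unadjusted p = 0.0217, adjusted p = 0.177 by edgeR). An exact two-sided permutation test of mean log2 CPM over all 252 assignments of the libraries to TG and WT gave p = 0.0714, where the smallest possible is 0.00794. Over the alternatives the edgeR adjusted p ran from 0.0530, without WT library 4, to 0.595, with the hepatocyte covariate.

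Tgfbr1, which encodes the receptor ALK5, lies on chromosome 4 from 47353222 to 47414931. It had 49.0, 56.4, 31.1, 59.5 and 48.7 CPM in TG libraries 1 to 5, against 50.3, 64.0, 60.7, 61.9 and 64.7 CPM in WT libraries 1 to 5. All 5 TG libraries lay below the WT mean of 60.3 CPM, and WT library 1 was the only WT library within the TG range. Its log2 fold change was -0.30 ± 0.16 (SE, adjusted p = 0.336 by edgeR), and the exact permutation test gave p = 0.0556. Without TG library 3, the lowest of the 10, the log2 fold change was -0.18 ± 0.097 (SE, adjusted p = 0.312 by edgeR), and with the hepatocyte covariate it was -0.53 ± 0.28 (SE, adjusted p = 0.451 by edgeR). The ratio of Tgfbr1 to Acvr1b per kilobase of exon was 0.466 to 1.04 in TG and 0.623 to 1.13 in WT.

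**Figure D2:**
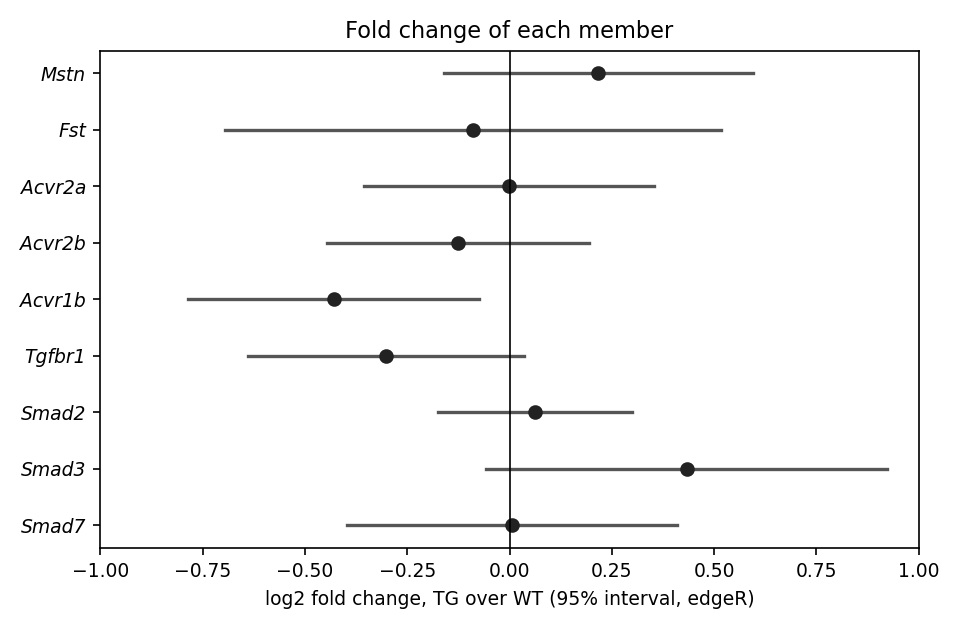
Log2 fold change of each member, TG over WT, from edgeR (points), with its 95% interval before adjustment for multiple tests (lines). The interval holds 0 for 8 members, and that of Acvr1b ends at -0.07.

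Among the receptor-regulated SMADs, Smad3 was the more abundant and the more variable. Smad3, on chromosome 9 from 63646767 to 63757994, had 23.1, 35.7, 53.9, 37.3 and 38.2 CPM in TG libraries 1 to 5, against 31.0, 16.2, 25.5, 36.0 and 30.5 CPM in WT libraries 1 to 5. TG library 3 was the highest of the 10 and WT library 2 the lowest, and TG library 1 lay below 4 of the 5 WT libraries. The means were 37.6 ± 11.0 CPM in TG and 27.8 ± 7.52 CPM in WT (SD, n = 5 each), and the log2 fold change was 0.43 ± 0.23 (SE, adjusted p = 0.343 by edgeR). It was 0.27 without TG library 3 and 0.26 without WT library 2 (edgeR adjusted p = 0.512 and 0.583), so either library alone moved it by more than 1.5 times. In the other direction, it was 0.57 without TG library 1 (edgeR adjusted p = 0.175). The exact permutation test gave p = 0.167 with all 10 libraries and p = 0.0238 without TG library 1.

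Smad2, on chromosome 18 from 76241580 to 76310963, was the steadiest member across all 10 libraries. It had 10.1, 11.5, 10.4, 11.1 and 11.1 CPM in TG libraries 1 to 5, against 12.4, 9.91, 11.0, 9.43 and 9.24 CPM in WT libraries 1 to 5. All TG values fell inside the WT range. The log2 fold change was 0.06 ± 0.11 (SE, adjusted p = 0.836 by edgeR), with a 95% interval from -0.18 to 0.30, the narrowest of the 9. With 1 library left out it ran from 0.00022, without WT library 4, to 0.095, without WT library 1. Per kilobase of exon Smad3 exceeded Smad2 in every library, by 3.61 to 8.18 times in TG and by 2.59 to 6.05 times in WT.

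Smad7, the inhibitory SMAD and itself a target of the pathway, lies on chromosome 18 from 75367529 to 75395935. It had 4.34, 6.33, 6.39, 3.88 and 5.79 CPM in TG libraries 1 to 5, against 5.99, 5.93, 4.44, 4.10 and 6.21 CPM in WT libraries 1 to 5. Each group held 2 low and 3 high libraries, and the ranges nearly coincided. Its log2 fold change was 0.0065 ± 0.19 (SE, adjusted p = 0.991 by edgeR), and its sign turned with the scaling, at -0.0026 with RLE size factors.

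Levels of different genes are compared per kilobase of exon, on the scale of CPM per kilobase. Mstn stood first in both groups, at 33.2 ± 8.87 in TG and 28.6 ± 3.02 in WT (SD, n = 5 each). Acvr1b followed with 9.27 ± 0.767 in TG and 12.5 ± 3.28 in WT. Tgfbr1 at 7.49 ± 1.69 in TG and 9.23 ± 0.889 in WT, Acvr2a at 7.15 ± 1.46 in TG and 7.15 ± 1.20 in WT, and Smad3 at 6.79 ± 1.98 in TG and 5.02 ± 1.36 in WT formed a middle group. From Acvr1b to Smad3 the ranges of neighbours in that order overlapped, within TG and within WT alike. Fst at 1.65 ± 0.606 in TG and 1.76 ± 0.649 in WT, Smad2 at 1.23 and 1.18, Smad7 at 1.18 and 1.18 and Acvr2b at 1.15 and 1.25, in TG and WT in each case, formed the lowest group. Mstn transcripts thus exceeded those of Fst in every library, by 12.7 to 36.0 times in TG and by 9.77 to 32.5 times in WT.

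Some libraries were low for one member and high for another. TG library 3 had Mstn, Acvr2a and Tgfbr1 at -0.56, -0.62 and -0.78 on the log2 scale relative to the mean of the 10 libraries, and Smad3 at 0.78. The same library had the highest summed tendon markers, at 278 CPM, against 22.7 to 63.4 CPM in the other TG libraries and 38.6 to 167 CPM in WT. WT library 3, the highest WT library in these markers at 167 CPM, had Mstn at -0.17, Acvr2a at 0.34, Tgfbr1 at 0.18 and Smad3 at -0.29. The part of the tendon markers in the levels of these 4 members was not tested. WT library 2 had Smad3 at -0.94 and Acvr1b at 0.57, and WT library 5 had Acvr1b at 0.58. Across all 10 libraries the SD of log2 CPM ran from 0.13 for Smad2 to 0.49 for Fst. Mstn had a coefficient of variation of 26.7% in TG and 10.6% in WT, whereas Acvr1b had one of 8.28% in TG and 26.3% in WT. These spreads were not compared by a test.

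**Figure D3:**
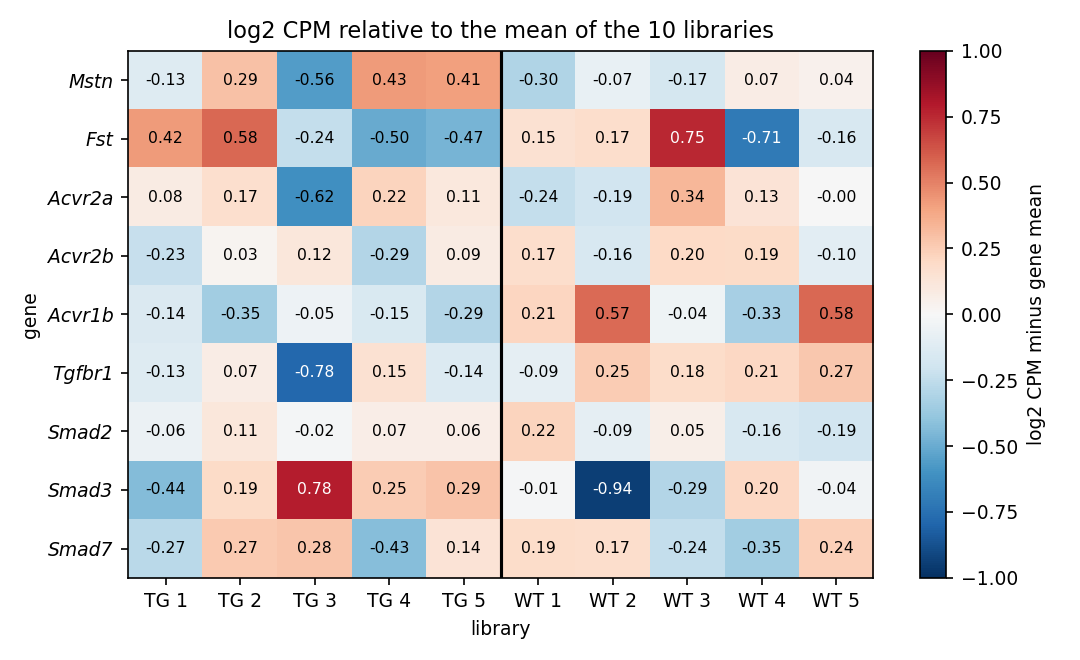
Log2 CPM of each member (rows) in each library (columns, TG left of the line, WT right of it) minus the mean of that gene over the 10 libraries. TG library 3 holds the lowest values of Mstn, Acvr2a and Tgfbr1, at -0.56, -0.62 and -0.78, and the highest of Smad3, at 0.78.

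The genes most like Mstn across the 10 libraries were sought by the root mean square difference of centred log2 CPM, over 8780 other genes with a mean of at least 5 CPM. The closest were Mettl5 at 0.116, Fam188a at 0.126, Azin1 at 0.130 and Larp1b at 0.144, against a median of 0.383 over all genes compared. These 4 were picked as the smallest distances, so they lie below that median by selection. Mstn itself had an SD of 0.317 in log2 CPM over the 10 libraries, so a gene that did not vary would also lie below it. Azin1, which encodes an inhibitor of antizyme in polyamine metabolism, had 45.0, 52.6, 35.8, 55.6 and 63.1 CPM in TG libraries 1 to 5, against 44.7, 42.7, 43.1, 55.8 and 47.1 CPM in WT libraries 1 to 5. Like Mstn, it was lowest in TG library 3. Azin1 was picked for its likeness to Mstn over these same libraries, so the shared low point is not a separate observation. The libraries share their depth and scaling across these genes, and exons of Mettl5 overlap those of Ssb on the opposite strand.

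The other genes of the pathway came from 7 lists with 77 different genes, of which 63 were tested. Of these, 2 rose and none fell (edgeR adjusted p under 0.05), a share below the 5.33% of all genes tested. Skil and Bmp2 were the ones that rose. Among the 63, only in Skil and Bmp2 did the TG and WT libraries not overlap, against 8.04% of all genes tested. The median log2 fold change of the 63 genes was 0.05, beside 0.0027 over all genes tested. An unadjusted p under 0.05 was reached by 10 of the 63, against 18.1% of all genes tested. TG library 3 was the highest of the 10 libraries for 26 of the 63 genes. The same count was not made over all genes tested, so no trait of the pathway is read from it. Like Skil and Bmp2, the hepatocyte and satellite cell marker sums were higher in every TG library than in every WT library, and the part of the satellite cell markers in the rise of either gene was not tested.

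Skil encodes SnoN, a repressor that binds SMAD complexes and is itself induced by SMAD3 as negative feedback. It had 26.3, 34.7, 25.3, 37.2 and 37.1 CPM in TG libraries 1 to 5, against 23.0, 22.1, 19.2, 22.8 and 24.1 CPM in WT libraries 1 to 5. Every TG library lay above every WT library, TG libraries 1 and 3 by little. The log2 fold change was 0.53 ± 0.13 (SE, adjusted p = 0.0342 by edgeR). The call was lost in the fits without any 1 of WT libraries 1 to 5 or TG libraries 2, 4 or 5 (edgeR adjusted p from 0.0582 to 0.118), and without TG libraries 4 and 5 the log2 fold change was 0.37 ± 0.14 (SE, adjusted p = 0.238 by edgeR). With the hepatocyte markers as a covariate it was 0.12 ± 0.20 (SE, adjusted p = 0.824 by edgeR). In that fit, whose covariate separates the groups, 68 of all genes tested were called, against 711 without the covariate.

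Of 13 tested genes of the list of other SMADs and their regulators, which also holds Skil, only Skil passed, and the median log2 fold change was 0.0048. The other tested targets of SMAD2 and SMAD3 did not pass. Of 8 tested, Skil rose and none fell, with a median log2 fold change of 0.09. Pmepa1, which encodes a membrane protein that restrains SMAD2 and SMAD3, had 7.53 ± 1.66 CPM in TG and 6.29 ± 0.922 CPM in WT (SD, n = 5 each). Pmepa1 was chosen for its place in the pathway after its values were seen.

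Bmp2 encodes a ligand of the BMP branch, which signals through SMAD1, SMAD5 and SMAD9 and in muscle is known to oppose the myostatin branch. It had 3.23, 2.93, 4.56, 4.02 and 5.28 CPM in TG libraries 1 to 5, against 1.97, 1.36, 2.39, 1.43 and 1.08 CPM in WT libraries 1 to 5. Every TG library lay above every WT library at this low level. Bmp2 rose 2.40 times, with a 95% interval from 1.66 to 3.47, which is 1.26 ± 0.25 on the log2 scale (SE, adjusted p = 0.0103 by edgeR). Bmp2 was called in each of the 10 fits that left out 1 library. The log2 value was 0.98 ± 0.40 with the hepatocyte covariate (SE, adjusted p = 0.336 by edgeR), and 1.10 ± 0.28 without TG libraries 4 and 5 (SE, adjusted p = 0.0529 by edgeR).

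Of the 11 tested genes of the BMP branch, Bmp2 rose and none fell. The median log2 fold change was 0.38, and 9 of the 11 were above 0, beside 6718 of 13338 genes tested. Id2 and Id3, which encode inhibitors of basic helix-loop-helix factors and are known targets of the branch, had log2 fold changes of 0.70 ± 0.24 and 0.43 ± 0.20 (SE, adjusted p = 0.128 and 0.267 by edgeR). Smad6, the inhibitory SMAD of the branch, had one of 0.36 ± 0.30 (SE, adjusted p = 0.588 by edgeR). TG library 3 was far above the others for Smad6, at 5.19 CPM, against 1.84 to 3.09 CPM in the other TG libraries and 1.52 to 3.54 CPM in WT. It was also the highest for Id3, at 12.3 CPM, against 6.48 to 8.17 CPM in the other TG libraries and 5.08 to 7.94 CPM in WT. Id2, Id3 and Smad6 were chosen after their values were seen.

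**Figure D4:**
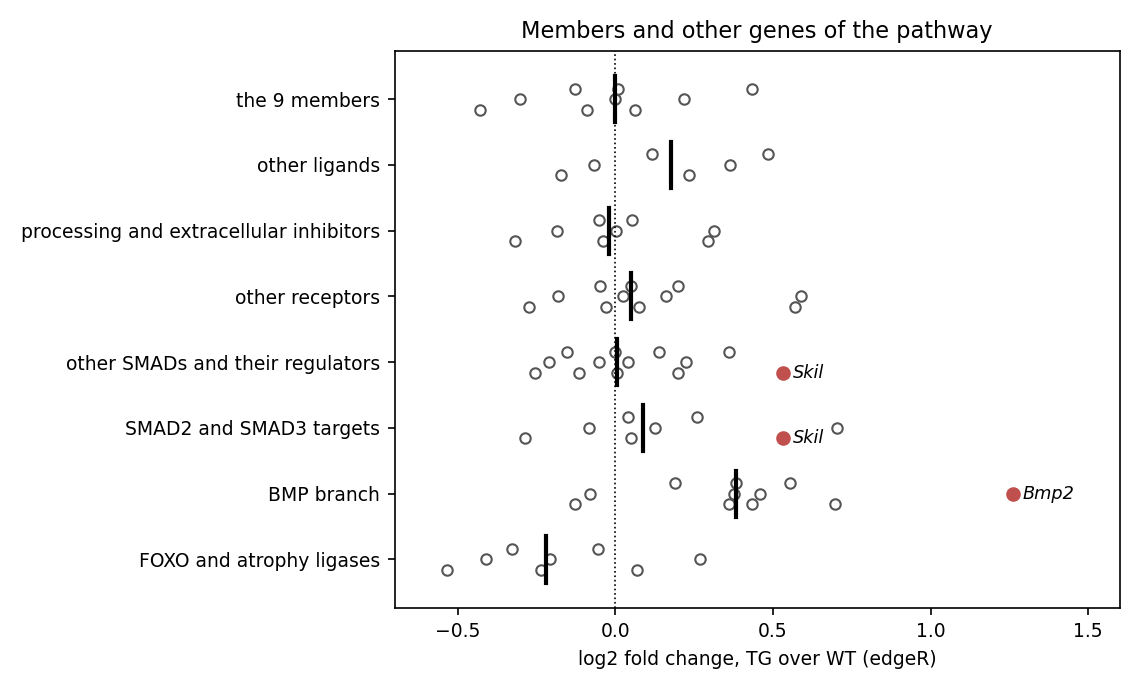
Log2 fold change, TG over WT, of the 9 members and of each tested gene in the 7 other lists (points, offset vertically for legibility), with black bars for list medians. Filled points passed an edgeR adjusted p of 0.05, which Skil (shown in both lists that hold it) and Bmp2 alone did.

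No gene passed among 6 other ligands, whose median log2 fold change was 0.18. Gdf11, the ligand closest to myostatin in sequence, had 6.06, 8.10, 10.5, 9.55 and 7.33 CPM in TG libraries 1 to 5, against 5.83, 4.83, 8.32, 4.95 and 5.63 CPM in WT libraries 1 to 5. Every TG library lay above 4 of the 5 WT libraries, and WT library 3 lay within the TG range. Its log2 fold change was 0.48 ± 0.19 (SE, adjusted p = 0.182 by edgeR). Inhbb, which encodes the subunit of activin B, had one of 0.36 ± 0.18 (SE, adjusted p = 0.298 by edgeR), and of 0.19 with the hepatocyte covariate (edgeR adjusted p = 0.810). Inhba, Inhbc and Inhbe were not analysed here.

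No gene passed among 8 genes of ligand processing and extracellular inhibition (median log2 fold change -0.019) or among 11 other receptors (median 0.05). Ltbp1, which encodes a protein that holds latent TGF-beta in the matrix, had a log2 fold change of 0.31 ± 0.13, and Bmp1, a protease that releases myostatin from its propeptide, had one of 0.29 ± 0.14 (SE, adjusted p = 0.207 and 0.297 by edgeR). Without WT library 4 these were 0.19 for Ltbp1 and 0.20 for Bmp1 (edgeR adjusted p = 0.437 and 0.556), and with the hepatocyte covariate that of Bmp1 was 0.54 (edgeR adjusted p = 0.384). Bmpr1b, a type I receptor for BMPs, had 12.5 ± 1.45 CPM in TG and 8.25 ± 2.56 CPM in WT (SD, n = 5 each). Its log2 fold change was 0.59 ± 0.19 (SE, adjusted p = 0.0983 by edgeR), and it was 0.75 without WT library 5, where it passed (edgeR adjusted p = 0.0382), and 0.30 with the hepatocyte covariate (edgeR adjusted p = 0.699). Bmpr1a, another such receptor, had one of -0.18 ± 0.10 (SE, adjusted p = 0.388 by edgeR), and its exons overlap those of the antisense gene Gm17110.

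No gene passed among 8 genes of the list of FOXO factors and atrophy ligases, which also holds the kinase gene Akt1 (log2 fold change 0.07). Of the 8 log2 fold changes, 6 were below 0, beside 6620 of 13338 genes tested, and the median was -0.22. Foxo4, a transcription factor of the atrophy program, had one of -0.33 ± 0.11, and Fbxo21, a ubiquitin ligase subunit induced in atrophy, had one of -0.41 ± 0.15 (SE, adjusted p = 0.116 and 0.148 by edgeR). DESeq2 called Foxo4 (adjusted p = 0.0468). Fbxo32, the gene of atrogin-1, had 1246, 801, 1047, 1355 and 1248 CPM in TG libraries 1 to 5, against 1293, 2515, 1381, 915 and 2151 CPM in WT libraries 1 to 5. WT libraries 2 and 5 were the highest for Fbxo32, as they were for Acvr1b. Fbxo32 was chosen after its values were seen, and its log2 fold change was -0.54 ± 0.25 (SE, adjusted p = 0.280 by edgeR), the lowest of the list. In the same list, Trim63 had one of -0.21 ± 0.33 and Fbxo30 one of 0.27 ± 0.19 (SE, adjusted p = 0.815 and 0.521 by edgeR).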

How the data were processed

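RNA from biceps femoris was sequenced, 1 library per mouse. The submitters' processing notes list DESeq2 1.10, HTSeq 0.6.1, SAMtools 1.2, Bowtie2 2.2.6 and TopHat2 2.1, and build GRCm38.p4. No source used here states the counting settings or strand. The authors deposited raw counts per gene for 5 TG and 5 WT libraries. Per the file headers, the authors' DESeq2 columns hold the mean signal, the log2 fold change, the Wald statistic (a score) and p-values.

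Genes were filtered with filterByExpr, which kept 13338 of 15883, scaled by TMM and fitted as TG against WT, with no covariate, by the quasi-likelihood functions of edgeR 4.0.16 under R 4.3.3, with Benjamini-Hochberg adjustment over all genes tested. Standard errors came from the fold change and its F statistic, and 95% intervals from the same test. Log2 CPM used a prior count of 2. Exon lengths and positions come from GENCODE M21, matched for 99.8% of genes tested. The fit was tested on simulated counts.

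The members, lists and rule for naming genes were chosen with earlier results of these data known. The rule names Zfp407, the members, in each list the genes past the threshold or else the 2 with the smallest p, and the 4 genes most like Mstn. Lists are described by counts and medians, with no set test. Alternatives were RLE size factors, DESeq2 1.42.0, no filter, the authors' adjusted p, each library left out, pairs of TG libraries left out, a hepatocyte marker covariate, the removal of 3 rows (Lars2, Gm15564 and Gm15662) that took 9.62% to 17.3% of counts in TG and 14.3% to 33.9% in WT, and a stricter threshold. Between libraries of the same group, chi-square over its degrees of freedom was never below 15.9, so none were taken as duplicates.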

Additional observations from a re-analysis of the deposited data

Results flagged for a closer look

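The check covered the 24 genes given by the rule for naming genes, and not those chosen after their values were seen. In each group of 5 libraries it looked for a library whose gap to its nearest neighbour takes up most of the range (Dixon's 95% limit). Of 48 groups checked, 4 exceeded it, and chance gives about 1 in 20. Acvr2a stood apart in TG library 3, at 26.1 CPM. Tgfbr1 stood apart in WT library 1, at 50.3 CPM. Bmpr1a stood apart in TG library 3, at 76.1 CPM, and Ltbp1 in WT library 4, at 19.1 CPM. All 4 were the lowest of their group.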

How the results depend on the processing

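No member passed the threshold under any alternative run. The call of Skil was lost in 11 of 18 alternatives and that of Bmp2 in 2. The number of other pathway genes past the threshold, 2, was 0 with the hepatocyte covariate, without TG libraries 4 and 5 and at an adjusted p of 0.01, and 1 without TG libraries 1 and 2. It ran from 1 to 2 with 1 library left out, and DESeq2 called 3. Over all genes the number called, 711, was 68 with the covariate, 1230 with DESeq2, 1158 in the authors' deposited table and 252 at an adjusted p of 0.01, and ran from 450 (without WT library 3) to 1116 (without TG library 3). By exact permutation no member had p under 0.05, but 1 did without the 3 abundant rows, without TG libraries 4 and 5 or without TG libraries 1 and 2 (Tgfbr1 each time), and 0 to 1 with 1 library left out.

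Some log2 fold changes changed sign, none of them past the threshold. With the covariate, Mstn was at -0.38, Fst at 0.59, Smad7 at -0.045, Mettl5 at -0.34, Fam188a at -0.38, Azin1 at -0.39 and Larp1b at -0.13. Without TG libraries 4 and 5, Mstn was at -0.011, Fst at 0.18, Mettl5 at -0.015, Fam188a at -0.065 and Azin1 at -0.069. Smad7 was at -0.0026 with RLE, -0.022 without the 3 rows, -0.0026 without TG libraries 1 and 2 and -0.0042 with DESeq2. With 1 library left out, Fst ran from -0.28 to 0.10, Acvr2a from -0.10 to 0.12 and Smad7 from -0.10 to 0.10. The covariate separates the groups, and the cause of these changes was not tested. At 49 to 246 counts per library, Acvr2b, Smad2, Smad7 and Fst carry the most counting error.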

Other observations

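Acvr1c, which encodes ALK7, a type I receptor known from fat cells, had 24.1, 19.9, 2.91, 8.08 and 10.9 CPM in TG libraries 1 to 5, against 37.96, 20.1, 9.27, 8.13 and 5.05 CPM in WT libraries 1 to 5. The summed adipocyte markers were 671, 422, 132, 206 and 291 CPM in TG and 784, 437, 309, 288 and 168 CPM in WT, in the same order of libraries. The lowest Acvr1c level and the lowest marker sum came from TG library 3, and the highest of both from WT library 1. The part of the adipocyte markers in the Acvr1c level was not tested. Acvr1c here and Ctgf below lie outside the rule for naming genes and were chosen after their values were seen.

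Ctgf, a target of SMAD3 that encodes a matricellular protein, had 49.5 CPM in TG library 3, against 10.2 to 22.5 CPM in the other TG libraries and 9.96 to 20.0 CPM in WT. TG library 3 was the highest of the 10 for 26 of the 63 other pathway genes, a count that takes in genes of all kinds, such as Col1a1, Akt1 and Ski. The share of all genes tested that were highest in this library was not counted, so the 26 are not a result about the pathway.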
